A study of Mus musculus with 8 samples.

Results

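CHD4 occupancy in control atria of the mouse was described from the peaks of the 2 CHD4 ChIP-seq libraries titled control. Peaks on the 19 autosomes were kept where the lists of both libraries overlapped by at least 1 bp, and overlapping peaks were merged into sites. Of the 99924 peaks of the first list (control 1), 98856 were autosomal and 72261 of these (73.1%) were shared. Of the 91520 peaks of the second list (control 2), 90535 were autosomal and 74146 (81.9%) were shared. The shared peaks formed 67943 sites that covered 96.5 Mb of build mm10. The series held 322174 peaks in 4 ChIP lists, and the lists of the libraries titled TBX5 KO were not used.

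The libraries came from whole right and left atria of TBX5flox/flox mice, so that control and TBX5 KO groups both carried the floxed alleles. Mice received an AAV9 vector on postnatal day 2, either Nppa-EGFP for control or Nppa-Cre, where Nppa names regulatory sequence of an atrial cardiomyocyte gene. The labels gave the cell type as mixed, the tissue as flash frozen and the library kit as ThruPLEX. Titles and library names (GFP1, GFP2) placed both libraries in the control group, whereas their genotype and treatment labels read TBX5 KO and AAV9:Nppa-Cre, and the protocol text names CHD4 as the deleted gene. Control below follows the titles, and if the other labels were right, the description would be of atria that had received Cre. The labels did not state whether the replicates came from separate animals, so differences between control 1 and control 2 may be technical. The lists give no read totals, so the depth is unknown. In a whole tissue, a site bound in fewer cells and a site bound more weakly in each cell cannot be told apart.

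CHD4 is the ATP-dependent remodelling subunit of the NuRD complex, which joins nucleosome remodelling to histone deacetylation and is recruited by transcription factors to promoters and enhancers. In the heart, CHD4 is known for keeping programmes of other lineages silent and for its association with cardiac factors such as TBX5, GATA4 and NKX2-5. A promoter whose CpG dinucleotides escaped loss by methylation is a CpG island promoter, typical of housekeeping and developmental genes, whereas promoters of tissue-restricted genes are often CpG-poor and may carry a TATA box. A wide peak shows an extended stretch of enriched chromatin rather than a point of contact.

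The 8 promoters printed here, chosen after their values were seen, are CpG-rich with a site, CpG-poor with a site, or CpG-rich without one. Each runs from 250 bases before to 50 after a transcription start in RefSeq (GRCm38.p6) and is written 5′ to 3′ on the strand of the gene. Capitals mark matches, on either strand, to the 11 motifs searched. These were the TATA box TATAAA, the CCAAT box, the GC box GGGCGG bound by SP1-type factors, the NRF1 core GCGCATGCG, the ETS factor core CCGGAAG and the GATA factor consensus GATAAG. The others were the T-box consensus AGGTGTGA, its shorter form GGTGTGA that every match of the longer one contains, the TEAD factor core CATTCC, the E-box of MYC-type factors CACGTG and the E-box of muscle regulators CAGCTG. The first pair are CpG-rich and lay under some of the strongest sites of both lists by rank. Cdc34, which encodes a ubiquitin-conjugating enzyme, starts in chr10:79681945-79682244 (+ strand), and Hjurp, which encodes a centromere histone chaperone, in chr1:88277530-88277829 (− strand).
Cdc34: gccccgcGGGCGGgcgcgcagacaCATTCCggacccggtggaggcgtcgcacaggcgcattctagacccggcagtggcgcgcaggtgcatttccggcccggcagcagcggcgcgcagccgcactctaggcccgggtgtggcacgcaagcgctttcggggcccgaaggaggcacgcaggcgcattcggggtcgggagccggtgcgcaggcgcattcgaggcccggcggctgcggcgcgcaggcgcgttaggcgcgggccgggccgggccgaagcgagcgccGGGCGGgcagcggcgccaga
Hjurp: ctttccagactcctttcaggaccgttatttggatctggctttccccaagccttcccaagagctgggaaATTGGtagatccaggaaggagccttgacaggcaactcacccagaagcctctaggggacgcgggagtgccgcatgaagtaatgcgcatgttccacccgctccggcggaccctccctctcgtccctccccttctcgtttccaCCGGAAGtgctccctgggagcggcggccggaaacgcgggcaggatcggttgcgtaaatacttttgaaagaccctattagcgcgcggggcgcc
The next 4 are CpG-poor promoters of cardiac muscle genes that lay under wide sites. They are those of Nppa, which encodes atrial natriuretic peptide (chr4:148000472-148000771, +), Myl7, the atrial myosin light chain (chr11:5898733-5899032, −), Myh6, the alpha myosin heavy chain (chr14:54966558-54966857, −), and Tnnt2, cardiac troponin T (chr1:135836084-135836383, +).
Nppa: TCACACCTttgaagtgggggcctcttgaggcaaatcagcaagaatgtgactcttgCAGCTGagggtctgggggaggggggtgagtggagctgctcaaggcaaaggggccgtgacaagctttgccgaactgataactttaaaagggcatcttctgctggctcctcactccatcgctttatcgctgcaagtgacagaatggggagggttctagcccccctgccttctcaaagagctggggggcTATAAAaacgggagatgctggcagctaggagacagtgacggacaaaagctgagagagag
Myl7: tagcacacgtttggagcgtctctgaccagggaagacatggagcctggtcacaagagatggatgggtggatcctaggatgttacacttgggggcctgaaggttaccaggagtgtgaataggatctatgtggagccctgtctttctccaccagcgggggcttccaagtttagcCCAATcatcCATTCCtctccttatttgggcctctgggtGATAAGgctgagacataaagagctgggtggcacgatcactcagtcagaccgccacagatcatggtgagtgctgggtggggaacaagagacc
Myh6: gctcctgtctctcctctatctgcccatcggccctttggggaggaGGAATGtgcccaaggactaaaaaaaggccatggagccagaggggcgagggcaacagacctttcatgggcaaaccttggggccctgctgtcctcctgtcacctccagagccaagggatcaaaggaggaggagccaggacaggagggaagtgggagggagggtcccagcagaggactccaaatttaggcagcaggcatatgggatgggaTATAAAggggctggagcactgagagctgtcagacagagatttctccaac
Tnnt2: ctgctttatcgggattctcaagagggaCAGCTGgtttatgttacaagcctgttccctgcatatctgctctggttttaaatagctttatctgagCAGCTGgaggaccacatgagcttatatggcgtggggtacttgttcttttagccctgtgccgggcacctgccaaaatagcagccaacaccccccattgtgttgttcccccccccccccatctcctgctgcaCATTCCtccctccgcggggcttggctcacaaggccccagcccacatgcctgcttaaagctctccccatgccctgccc
The last pair are CpG-rich promoters with no shared site, those of the neuronal regulator Neurog1 (chr13:56252131-56252430, −) and the oligodendrocyte regulator Olig2 (chr16:91225300-91225599, +).
Neurog1: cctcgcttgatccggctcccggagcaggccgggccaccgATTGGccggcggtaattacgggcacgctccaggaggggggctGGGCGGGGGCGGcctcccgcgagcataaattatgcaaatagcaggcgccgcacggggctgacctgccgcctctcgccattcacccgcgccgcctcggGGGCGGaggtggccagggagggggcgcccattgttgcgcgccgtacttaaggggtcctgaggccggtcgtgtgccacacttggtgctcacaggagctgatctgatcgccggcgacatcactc
Olig2: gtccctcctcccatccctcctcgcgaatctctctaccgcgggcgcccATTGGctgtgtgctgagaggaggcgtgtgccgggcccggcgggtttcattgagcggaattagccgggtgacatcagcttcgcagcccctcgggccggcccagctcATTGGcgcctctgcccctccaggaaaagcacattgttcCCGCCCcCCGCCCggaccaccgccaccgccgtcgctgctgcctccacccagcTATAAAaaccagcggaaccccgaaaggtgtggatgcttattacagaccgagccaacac
CpG observed over expected was 1.13 for Cdc34 and 0.827 for Hjurp. It was 0.28 for Nppa, 0.237 for Myl7, 0.0833 for Myh6 and 0.226 for this start of Tnnt2. It was 0.891 for Neurog1 and 0.815 for Olig2, both above the 0.6 used below to call a promoter CpG-rich. The TATAAA motif was matched in Nppa, Myh6 and Olig2, and the reverse complement of AGGTGTGA in Nppa.

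Shared peaks were wider and ranked higher than peaks of 1 list. Median width in control 1 was 811 bp for shared and 353 bp for unshared peaks, and in control 2 it was 743.5 bp and 348 bp. Rank is given as the percentile of the authors' −log10 p among all peaks of the same list, where 100 is the strongest peak. The median percentile was 63.1 for shared and 20.4 for unshared peaks in control 1, and 58.8 and 17.2 in control 2. The share of peaks that overlapped the other list rose from 29.8% in the weakest decile to 100% in the strongest in control 1, and from 44.7% to 100% in control 2. Median width over the same deciles went from 326 to 2162 bp and from 338 to 2015.5 bp. Every peak of 5 kb or more was shared, 1208 in control 1 and 910 in control 2, of which 154 and 110 reached 10 kb. A wide peak meets a 1 bp overlap more easily than a narrow one, so width and sharing are tied by construction. Since width rose with rank, the trend over deciles is tied to this rule as well.

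**Figure D1:**
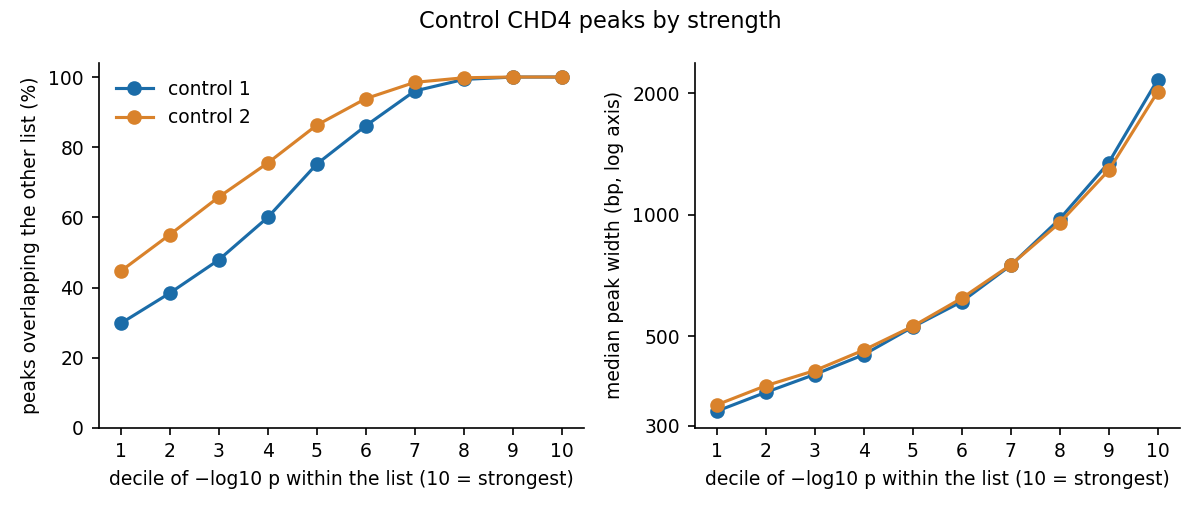
Autosomal peaks of each control list by decile of −log10 p within the list (x axis, 10 strongest), with the share that overlap the other list in percent (left) and the median width in bp on a log axis (right). Points are single libraries. Overlap climbs from 29.8% and 44.7% to 100%, and width from 326 and 338 bp to over 2000 bp.

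A site was usually 1 peak in each list. This held for 60094 sites (88.4%), and their summits in the lists lay a median of 63 bp apart, with 65.8% within 100 bp and 88.5% within 250 bp. The other 7849 sites held several peaks in at least 1 list. Sites had a median width of 983 bp, 5% were under 412 bp and 5% over 3825 bp, and the widest spanned 59662 bp. The 270 sites of 10 kb or more made up 0.397% of sites and 4.03% of their length. Sites came close together: the median gap to the next site was 6088 bp and 45.9% of gaps were under 5 kb. Across the 67943 sites the percentiles in the lists had a Spearman correlation of 0.868 and the peak lengths of 0.822, as a description of sites that were selected for being called in both. Log10 site width and mean percentile had a Spearman correlation of 0.675, and both come from the same signal.

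Sites were densest at the ends of protein-coding genes. Within 1 kb of an end of a RefSeq protein-coding gene lay 13350 sites, 19.6% of sites against 3.08% of the sequence, which is the stretch from the first to the last such gene of each autosome, 2429 Mb in all. In single lists the share of shared peaks was 18.9% and 18.7%. Because a wide interval touches a gene end more easily than a point, the summit of the strongest peak was also placed, and 16.9% of summits were within 1 kb of an end. A further 34376 sites (50.6%) lay inside a gene, with 38.8% of the sequence. Outside genes, 5581 sites lay within 10 kb, 10378 between 10 and 100 kb (15.3% against 21.8% of sequence) and 4258 beyond 100 kb (6.27% against 28.0%). Density was 179 sites per Mb at gene ends, 36.5 inside genes and 6.26 beyond 100 kb.

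Sites at gene ends also had the highest ranks and widths. Their median width was 1652 bp, against 917 bp inside genes and 788 bp beyond 100 kb. Their median percentile was 89.1 in control 1 and 85.9 in control 2, with authors' fold enrichments of 6.76 and 5.30. Inside genes the percentiles were 57.4 and 53.3 and the folds 3.33 and 3.11. Distant sites were not the weakest: beyond 100 kb the percentiles were 61.6 and 59.2. Of the 9071 sites with a mean percentile of 90 or more, 63.3% were at a gene end, compared with 7.48% of the 10258 sites under 30. The share at a gene end went from 6.78% of sites under 500 bp to 60% of sites of 10 kb or more. A wide interval touches a gene end more easily, so width and this class are tied by construction. Neither this trend nor the widths and ranks by class were repeated with summits. Autosomes differed in density, from 20.6 sites per Mb on chromosome 14 to 38.0 on chromosome 19 and 41.9 on chromosome 11. Over the 19 autosomes, density had a Spearman correlation of 0.774 with protein-coding genes per Mb, where both share the same lengths.

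**Figure D2:**
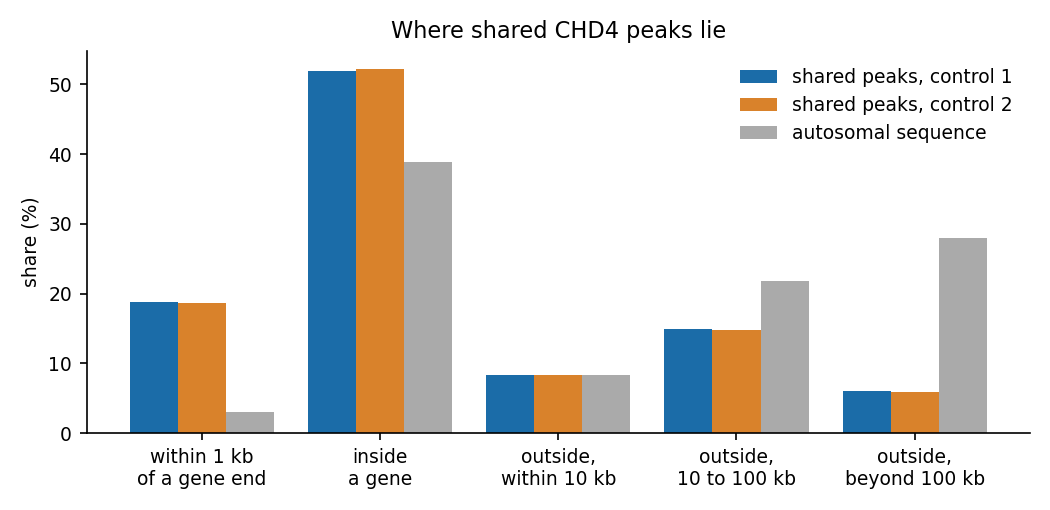
Share in percent (y axis) of shared peaks of control 1 and control 2, and of autosomal sequence, in 5 classes of position relative to protein-coding genes (x axis). Bars are single values per library. Within 1 kb of a gene end lay 18.9% and 18.7% of shared peaks against 3.08% of sequence, and beyond 100 kb of a gene 6.05% and 5.95% against 28.0%.

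Gene starts carried a site more often than 3′ ends. Strand was known for 16457 genes (79.6%) through their RefSeq promoters, and of these 57.7% had a shared site within 1 kb of the start and 19.1% within 1 kb of the 3′ end. Among the 10549 such genes of 10 kb or more, 52.3% had a site at the start alone, 14.5% at both ends, 2.65% at the 3′ end alone and 30.6% at neither. In 7569 genes of 20 kb or more, shared peaks covered 41.4% of the last kb before the start in control 1 and 39.4% in control 2. Cover was 21.1% and 19.6% in the first of 10 equal parts of the gene body, reached its lowest values of 4.25% and 3.92% in the ninth part, and was 8.89% and 8.16% in the third kb past the 3′ end. The values past the 3′ end were lower in genes without neighbours. In the 2932 of these genes with no other protein-coding gene within 10 kb, cover was 3.02% ± 0.101 (SD, n = 2 libraries) in the last kb of the body, 3.48% ± 0.192 from 1 to 5 kb downstream and 2.94% ± 0.164 from 5 to 10 kb. In the same genes it was 31.4% ± 0.967 in the last kb upstream and 41.9% ± 1.93 in the first kb of the body. Summits at starts lay a median of 61 bp upstream of the start in control 1 and 68 bp in control 2 (offsets of -61 and -68 bp), and about 79% were within 250 bp of it (79.0% and 79.2%).

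**Figure D3:**
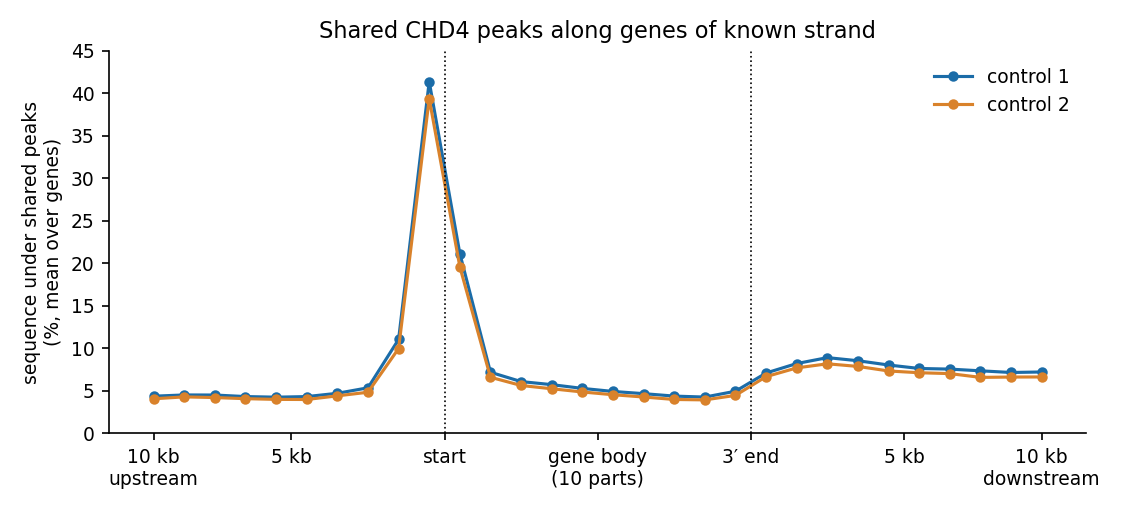
Percent of sequence under shared peaks (y axis, mean over 7569 genes of 20 kb or more with known strand) in 1 kb steps upstream and downstream and in 10 equal parts of the gene body (x axis), for each control library. Of these bins, cover is highest in the kb before the start, at 41.4% and 39.4%. It stays between 3.92% and 7.17% from the second part of the body to its end. Body parts are longer than 1 kb, so their cover is not comparable with that of 1 kb steps. In 2932 genes without neighbours, mean cover was 31.4% in the last kb upstream and 41.9% in the first kb of the body.

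Over all starts, the base composition of promoters differed between those with and without a site. Of the sequences printed above, only Cdc34 and Hjurp follow this trend. Those of Nppa, Myl7, Myh6 and Tnnt2, CpG-poor with a site, and of Neurog1 and Olig2, CpG-rich without, go the other way. RefSeq promoters gave 20063 distinct starts of 16438 genes, and 11621 of the promoters (57.9%) overlapped a shared site. Median CpG observed over expected was 0.779 in promoters with a site and 0.220 in those without, and median GC was 62% and 48.7%. Of 9816 starts at or above 0.6, called CpG-rich here, 88.7% had a site, against 28.5% of 10247 CpG-poor starts. GGGCGG was in 67.0% of promoters with a site, 19.5% without and 47.0% of all. CCGGAAG was in 18.4%, 2.90% and 11.9%, and GCGCATGCG in 3.80%, 0.403% and 2.37%. TATAAA went the other way, with 6.22%, 21.7% and 12.7%. CCAAT (37.2%, 39.4% and 38.1%) and CAGCTG (15.2%, 16.3% and 15.6%), differed little between the classes. GATAAG was in 4.60% of promoters with a site, 10.1% without and 6.91% of all, and AGGTGTGA in 0.740%, 1.75% and 1.17%. GGTGTGA was in 3.16%, 4.39% and 3.68%, CATTCC in 11.8%, 15.5% and 13.4%, and CACGTG in 10.2%, 4.74% and 7.89%. GC content moved with the presence of a site, and its part in these shares was not tested.

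Promoters under the widest sites were not the most CpG-rich. Median CpG observed over expected was 0.679 under sites narrower than 1 kb, 0.781 for 1 to 2 kb, 0.814 for 2 to 5 kb and 0.758 for 5 kb or more. CCGGAAG was in 22.3% of promoters under sites of 1 to 2 kb and in 10.3% under sites of 5 kb or more, with the GC box at 65.5% and 70.5%. Hjurp illustrates the former: its 1676 bp site was at percentiles 99.993 and 99.9825, and the promoter holds CCGGAAG. The folds of that site were 9.18 and 6.93, against medians of 15.5 and 10.99 for sites at a mean percentile of 99 or more. Cdc34 illustrates strong sites with a CpG-rich start: its 6673 bp site, at 99.997 and 99.988, had the highest fold of control 1 at 34.6, and a fold of 14.8 in control 2.

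Most protein-coding genes had a shared site nearby. Within the gene body plus 10 kb on each side, 14994 of 20665 autosomal genes (72.6%) had at least 1 site, and 60.4% had one within 1 kb of an end. A gene had a median of 2 sites, 1993.5 bp of shared peak and 3.86% of its window covered. For 2077 genes (10.1%) at least 25% was covered, and for 400 at least 50%. Neighbouring genes can share sites, since the windows overlap. By length, 46.6% of genes of up to 5927 bp and 86.7% of those from 45021 bp on had a site, while median cover was 6.41% between 5931 and 17491 bp and 2.98% in those longest genes.

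Genes were ranked by summed length of shared peaks in that window, given first for control 1 and then for control 2. Ttn, which encodes the giant sarcomere protein titin, came first with 226447 and 232345 bp in 40 sites, 76.8% of its window. Zbtb16, a zinc finger repressor, had 164476 and 167837 bp (81.3% covered). Nfia, a nuclear factor I gene, had 165899 and 159555 bp in 79 sites, but in a gene of 540811 bp this was 29.02%. Both libraries placed these 3 genes among the first 4 with Tns1, which encodes the focal adhesion protein tensin and had 165763 and 156412 bp. Rbm20, the splicing regulator of Ttn, had 129454 and 125570 bp (56.4% covered). Arhgap26 had the most sites of any gene, 105, over 130098 and 124573 bp. Ryr2, the calcium release channel of the sarcoplasmic reticulum, had 105033 and 119055 bp in 77 sites. It differed more between the libraries than most of the genes at the top, and control 2 was the higher.

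Further genes of the first 25, in order, were Rbpms, Gse1, Zmiz1 (all before Ryr2), then Fndc3b, Ablim1, Mical2, Msi2, Zbtb20, Akap13, Rad51b, Aopep, Sptbn1, Pakap, Syn3, Trak1, Ctif and Dst. Several act on RNA (Rbpms, Msi2) or on the cytoskeleton and sarcomere margin (Ablim1, Mical2, Sptbn1, Dst), by general knowledge of these genes. Of the 25, 24 were among the first 25 in each list. The 25th mean was 86398.5 bp and the next gene had 86281.5 bp, so the border is arbitrary. Long genes led this ranking: the median length of the 25 genes was 295173 bp against 17491 bp for all genes, and none of them was among the 25 when genes were ranked by share covered. Across 14994 genes with a site, summed lengths in the lists had a Spearman correlation of 0.985, and the lists share the same gene lengths.

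The sums of some of these genes depended on how sites were taken. With summits within 250 bp as the condition for a shared peak, the mean sum of Ttn went from 229396 to 84051 bp, that of Nfia to 98565 bp and that of Ryr2 to 56440 bp. Without peaks of 10 kb or more and those under 300 bp, Ttn had 105328 bp and Zbtb16 53265.5 bp. Counting each site for its closest gene end alone left Arhgap26 with 29379.5 bp, Aopep with 33599.5 bp, Zbtb20 with 17968.5 bp and Syn3 with 4794.5 bp, so that most of the peak length in the windows of these 4 genes was closer to the end of another gene.

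**Figure D4:**
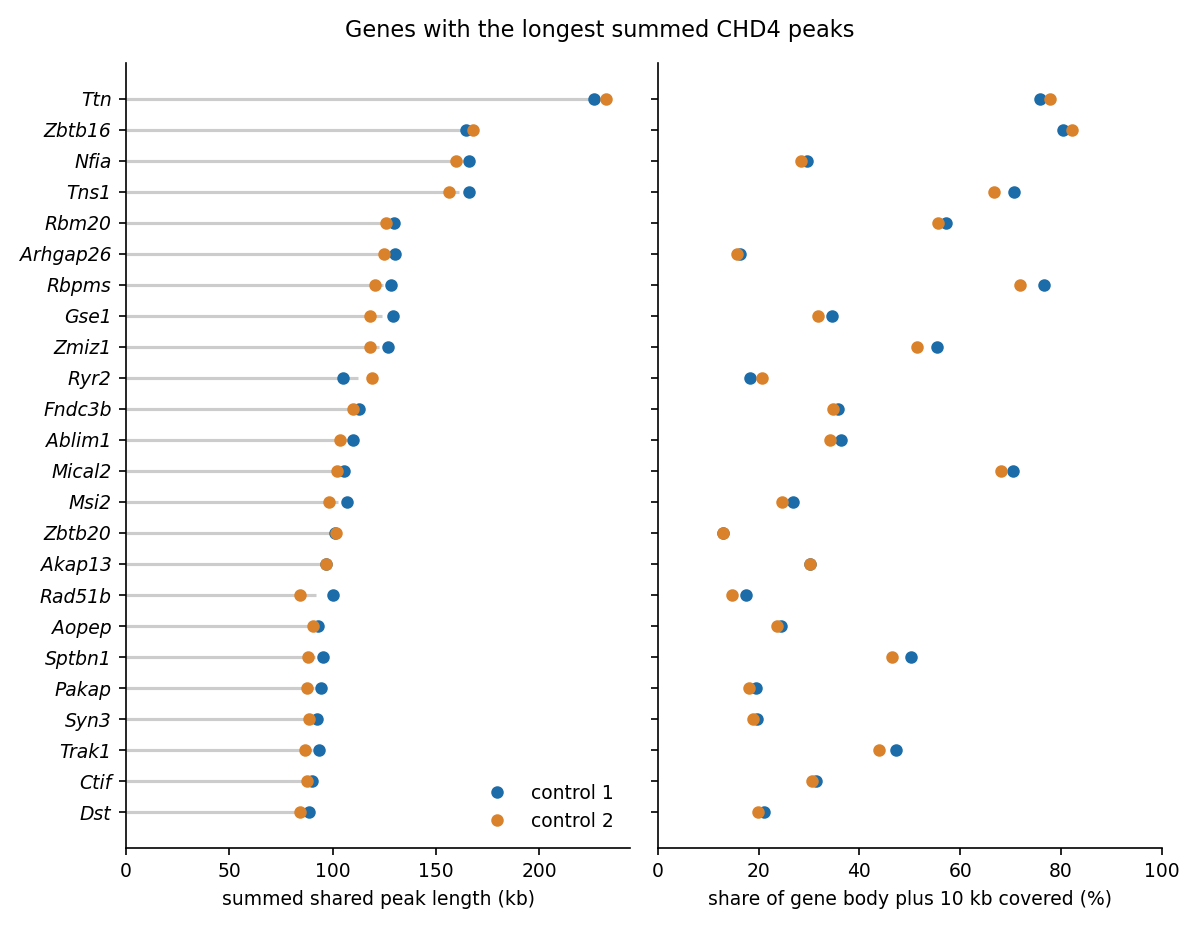
Summed shared peak length in kb (left) and share of the gene body plus 10 kb covered in percent (right) for 24 of the 25 genes with the longest sum (y axis), with 1 point per control library and a line to the mean. Ttn leads at 226 and 232 kb, and cover ranges from 13.0% for Zbtb20 to 81.3% for Zbtb16.

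Ranking by share covered brought up other genes. Midn, which encodes a nuclear protein that takes proteins to the proteasome, had 98.9% of its window covered. Its neighbour Atp5d, a subunit of ATP synthase, had 88.2% under 3 sites, among them the 40897 bp site of Midn. Atp2a2 encodes the cardiac sarcoplasmic reticulum calcium pump and had 96.0% covered, 66252 bp in control 1 and 65723 bp in control 2, in a gene of 48713 bp. Per1, a circadian clock repressor, had 92.0% and Txnip, a regulator of glucose uptake, 89.1%. The first 12 also held Gm30599 and Crip2, which share a site of 21976 bp, and Ifi30, Adamtsl4, Drap1 and E030018B13Rik, between 86.3% and 92.5% apart from Gm30599 at 98.5%.

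The 8 widest sites lay over or next to Atp2a2, Ttn, Midn, Smad7, Nfic, Frmd8, Smad6 and Tnnt2. The widest, 59662 bp at chr5:122444994-122504655, spanned Atp2a2 as 2 peaks in each list and ranked at percentiles 99.5 and 99.5. The next, 55135 bp at chr2:76699958-76755092, lay over the 3′ part of Ttn, where it was 1 peak in control 1 and 2 in control 2, with lower ranks of 94.3 and 87.1. The site of Midn followed (chr10:80136236-80177132, percentiles 99.6 and 99.9). Smad7 (33702 bp) and Smad6 (31816 bp), the inhibitory SMADs that restrain TGF-beta and BMP signals, were each broken into more peaks in control 2 (6 and 7) than in control 1 (2 and 3). Nfic, another nuclear factor I gene, had a site of 32574 bp, the site nearest Frmd8 spanned 32397 bp, and Tnnt2 lay under 30358 bp (chr1:135828703-135859060, percentiles 91.3 and 92.2).

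The 12 strongest sites were narrower, from 1676 to 12924 bp, and 10 of them were at a gene end. Among the 12 was chr17:39843107-39846850, 103670 bp from the nearest gene end, whose low folds of 4.75 and 3.12 are taken up below. The site with the highest mean percentile, 3880 bp at chr19:41980243-41984122, covered the start of Ubtd1 with folds of 26.7 and 14.6. The sites of Phtf2, Mllt10, Gm38457 and Cdc34 followed. Hspa8, the constitutive heat shock chaperone, and Ptma, prothymosin alpha, also had a site among the first 12, with percentiles of at least 99.98 in both lists. Ctif, in the gene body 69059 bp from an end, and Zbtb20 were in both the strongest sites and the longest sums. The site beside Tlcd2 spanned 12391 bp and held a microRNA gene (Mir22).

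A few sites of very high rank had low folds. Of 884 sites with a mean percentile of 99 or more, the median fold was 15.5 in control 1 and 10.99 in control 2, and 3 had a fold under 5 in both. At chr17:39843107-39846850, 103670 bp from the nearest protein-coding gene end, percentiles were 100 and 99.98 with folds of 4.75 and 3.12. Its neighbour at chr17:39847592-39848811 had folds of 4.70 and 3.30, and chr2:98666775-98667256 folds of 1.66 and 1.83. No list of regions prone to such pileups was used here, and whether these are CHD4 sites was not tested.

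Cardiac muscle gene lists had median covers above the 3.86% of all genes. For the counts that follow, 72.6% of all genes had a site and 10.1% reached 25% cover. All 26 sarcomere and Z-disc genes had a site, with a median cover of 44.5% in control 1 and 45.2% in control 2, and 16 reached 25% cover. Beside Ttn they included Tnnt2 (84.0% covered, 30899 and 29520 bp), Ldb3, which encodes a Z-disc protein (48731 and 49733 bp), and Actn2, alpha-actinin (39407 and 45855 bp). Of 23 atrial identity genes, 22 had a site, with medians of 36.1% and 35.4%, and 14 reached 25%. Ventricular identity genes came lower, with 11 of 13 (84.6%, nearer the share of all genes), medians of 13.0% and 10.7%, and 6 at 25%. Myh7, the ventricular myosin heavy chain, had 80.2% covered, but it lies next to Myh6, whose sites fall in its window. Hand1 and Irx4, transcription factors of the ventricle, had no site. Of 34 cardiac transcription factors 33 had a site, with medians of 22.4% and 21.2%, and 15 reached 25%. Isl1, a progenitor and sinus node factor, was the one without.

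Genes of atrial contraction and signalling differed from each other in form. The site of Nppa spanned 11863 bp, at percentiles 99.2 and 98.8. It was merged from 2 peaks with 11265 bp in control 1 and 3 peaks with 10674 bp in control 2. The neighbouring Nppb, brain natriuretic peptide, had 1 site of 1846 bp, at 87.7 and 86.5. Its mean sum of 1803.5 bp became 2968 bp when all peaks of control 2 were taken without control 1. Most of the length at Nppa lay in its flanks, with 1353 bp in the gene body, and the same site also touches the end of Clcn6. Myl7 had 4 sites with 13103 and 12469 bp, of which that at the start, 9092 bp, held the promoter printed above. Myl4, the other atrial light chain, had 14 sites with 29976 and 28142 bp. Sln, sarcolipin, an inhibitor of the calcium pump, had 1 site of 9690 bp, merged from 3 peaks in control 1 and 2 in control 2. Bmp10, an atrial growth factor, had 11 sites with 15960 and 16079 bp, 62.8% of its window. Pam, the peptide amidating enzyme abundant in atrial granules, had 77231 and 82475 bp in 62 sites. Gja5, the atrial connexin, had 7 sites and 16.1% covered, and control 1 was higher with 7812 against 5477 bp. Nppc, C-type natriuretic peptide, had none.

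Among cardiac regulators, Tbx5 itself had 21 sites over 76080 and 71072 bp, 67.7% of its window, and its widest of 13425 bp lay inside the gene. Gata4 had 15 sites, 59501 and 53962 bp and 61.1% covered. Nkx2-5 had 8 sites with 7425 bp in control 1 and 10356 bp in control 2, none over 2130 bp. Chd4 had 8 sites over 14646 and 13542 bp, with the widest, 7690 bp, at its start (chr6:125094437-125102126). All 14 NuRD genes listed had a site, and 21 of 22 BAF remodelling genes did. Mta1 was the longest of the NuRD genes by summed length (22957 and 23185 bp). Its window takes in part of the 21976 bp site shared by Gm30599 and Crip2. In calcium handling all 18 genes had a site and in ion channels all 19. These counts stand beside 72.6% of all genes with a site and 86.7% of genes of 45021 bp or more, while the median length of the calcium handling list was 143135 bp. The L-type channel gene Cacna1c had 68193 and 64203 bp but 10.5% cover, while Kcnk3 had 59.1% and Kcnh2 54.5%.

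Genes of general metabolism and protein synthesis were covered too. Oxidative metabolism had 24 of 24 genes with a site and medians of 18.1% and 15.3%, and housekeeping 19 of 19 with 21.4% and 18.9%. All 35 complex I subunits and 75 of 78 ribosomal protein genes had one, beside 72.6% of all genes. Actb, beta-actin, had 62.8% covered and Gapdh, a glycolytic enzyme, 35.0%. Median width of sites over starts was 5308 bp for the sarcomere list, 3578.5 bp for oxidative metabolism, 3415 bp for atrial identity, 2627 bp for housekeeping, 1664 bp for complex I and 1961 bp for all starts with a site.

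Lists of the other cell types of the atrium varied. Endothelial genes had 17 of 18 with a site and medians of 8.97% and 8.10%, led by Pecam1 (50983 and 44412 bp) and Eng (71.3% covered). Fibroblast genes had 15 of 15 and 9.40% and 10.3%, and smooth muscle genes 12 of 13 and 9.88% and 9.51%. For immune cells 8 of 17 genes had a site, below the 72.6% of all genes, and the median cover was 0. Cd68 led that list with 59.6%, but its window of a gene of 1958 bp reaches its neighbours. Counting each site for its closest gene end left 5 immune genes with a site, and 3 when the gene body alone was used. Epicardial genes had 5 of 9 with the highest cover at 5.91%.

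Lists of other lineages and tissues ranged widely beside the 72.6% of all genes with a site. Neural and glial genes had 14 of 16 with a site (87.5%), at a median cover of 1.08%, and adipocyte genes 5 of 7 (71.4%), at 6.46%. Of 18 regulators of brain and other lineages 1 had a site, Lhx2, with 569 and 493 bp. With all peaks of 1 list, shared or not, 3 of the 18 had a peak. Of 16 skeletal muscle genes 10 had a site, and Myf5 and Myod1 had none nearby. In the same list 2 genes (12.5%, beside 10.1% of all genes) reached 25% cover, Tnnt3 with 31.3% and Tnni2 with 28.7%. None of the promoters of the 10 RefSeq starts in this list overlapped a site. Of its 10 genes with known strand, 1, Mylpf, had a site within 1 kb of the start. Liver genes had 6 of 12, with Alb and Afp without. Apoa2 led that list with 6055 and 5309 bp in 4 sites and 22.9% cover. Both Apoa2 and Apoa1 had a site within 1 kb of the start. Olfactory receptors had 36 of 1104, vomeronasal receptors 4 of 352 and keratin-associated proteins 1 of 56. Genes of these 3 families, by name, made up 26.0% of the 5671 genes without a site, beside 1514 of all 20665 genes. Of 39 Hox genes 21 had a site, with a highest cover of 7.92%. The longest genes with none included Dpp10, Gpc5, Lingo2 and Csmd3, each over 1.2 Mb and known for roles in neurons or the cell surface.

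CpG content and occupancy came apart in these lists. Of the 15 CpG-rich starts of brain and other lineage regulators 1 had a site, and of the 12 CpG-rich Hox starts 1, beside 88.7% of all CpG-rich starts. Neurog1 and Olig2 above are examples. Several lists, cardiac and other, had sites at most of their CpG-poor starts, beside 28.5% of all CpG-poor starts. The counts were 23 of 27 for sarcomere, 12 of 14 for atrial identity and 11 of 11 for oxidative metabolism. They were 7 of 8 for endothelial, 7 of 10 for fibroblast and 2 of 6 for smooth muscle genes. For immune genes the count was 1 of 10 CpG-poor starts, and for olfactory receptors 1 of 937. At CpG-rich starts, sarcomere genes had 4 of 5, atrial identity 5 of 9 and endothelial 3 of 5. Oxidative metabolism had 15 of 15, fibroblast 2 of 2 and smooth muscle 3 of 3. The lists were chosen with earlier results known and several starts belong to the same gene, so these counts describe the lists.

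**Figure D5:**
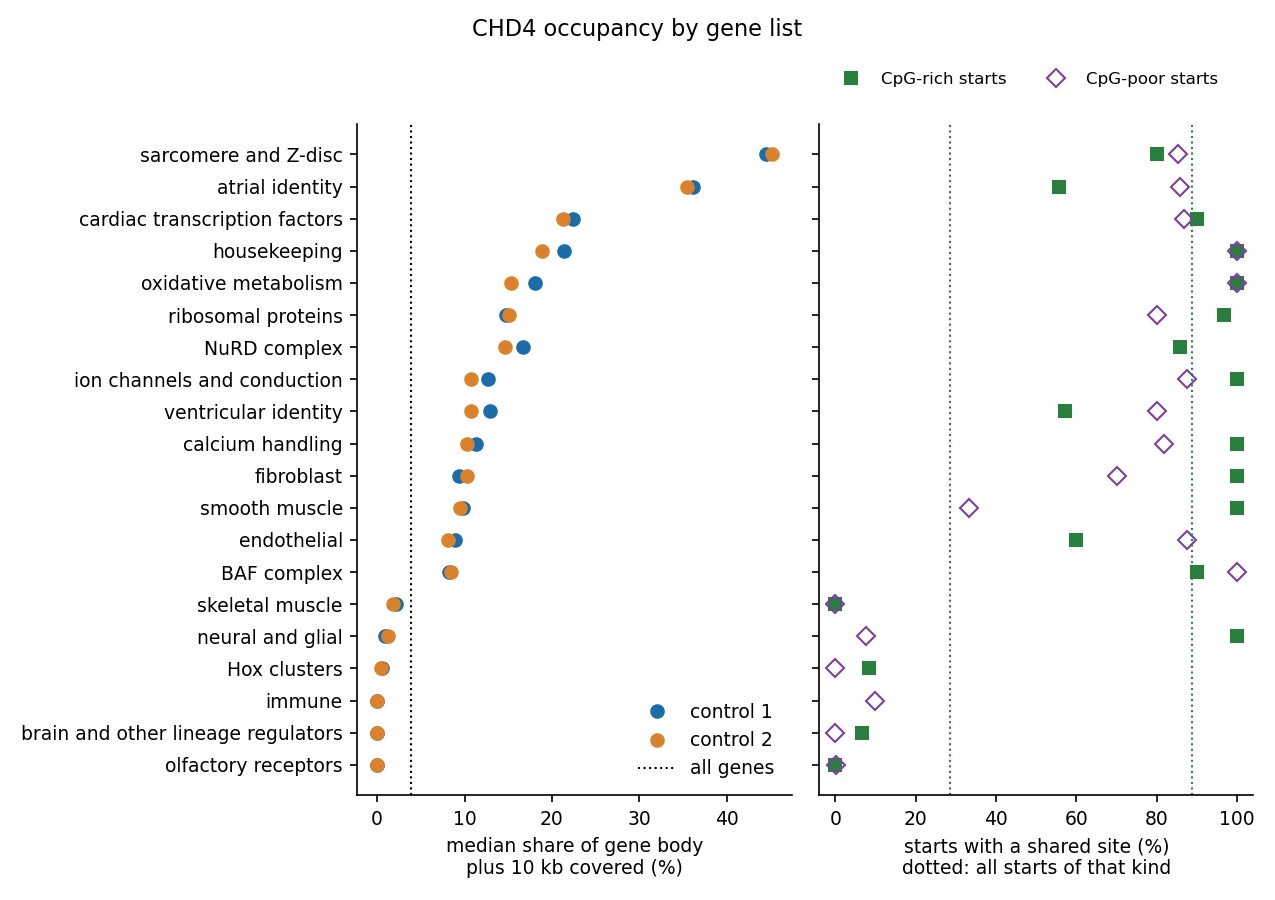
For 20 gene lists (y axis), the median share of gene body plus 10 kb under shared peaks in each control library, in percent, with the median of all genes dotted (left), and the percent of CpG-rich (squares) and CpG-poor (diamonds) starts under a shared site, with all such starts dotted (right). A missing symbol means that the list has no such start. Sarcomere genes reach 44.5% and 45.2% cover, while 6.67% of CpG-rich starts of brain and other lineage regulators have a site.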

How the data were processed

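CHD4 ChIP-seq peaks of the 2 libraries titled control were analysed. The series holds 4 ChIP and 4 input libraries, and no input file was analysed. The design text says that ChIP and input reads both went into each processed file. MACS2, DiffBind and mm10 are named in the submitters' processing notes. For the aligner and call parameters, nothing was given in the sources used here. Each library has its own deposited list, so replicates were not pooled. The authors' fold is a ratio over local background, and their peak caller gave the deposited −log10 p and −log10 q. The lowest deposited −log10 q was 1.31 in control 1 and 1.30 in control 2. The deposited score was not used to rank peaks. Values served to rank peaks within a list, and no read depth or interval can be derived from them.

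Python 3.11.15 with numpy 2.4.6 and pandas 2.3.3 kept autosomal peaks that overlapped by 1 bp, merged them into sites, and summed peak length per gene body plus 10 kb. Genes, starts and promoters came from RefSeq tables of GRCm38.p6, the assembly of mm10, which give no exons or introns. Functions were tested on simulated peaks, and 7 of 7 checks were recovered exactly. No statistical test was made, since there is 1 group of 2 libraries. Members, gene lists and alternatives were chosen with earlier results of these data known. Named genes were the 25 with the largest summed length, the 12 with the largest share covered, those nearest to the 12 strongest and 8 widest sites, up to 3 members with most and 2 with no sites per list, 17 set cardiac and reference genes and the 5 longest genes without a site. A few genes chosen by this rule are not reported here. Other genes named were chosen after their values were seen.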

Additional observations from a re-analysis of the deposited data

How the results depend on the processing

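Depth is unknown, so a site missing from a list may be bound below the threshold. The number of sites, 67943, ranged from 47876 (−log10 q of at least 5) to 66018 (overlap of 50% of the shorter peak) when both lists were used, and from 90535 to 98856 with 1 library left out, where all peaks of the other list count. Genes with a site ranged from 13679 (gene body alone) to 15434. The share of sites at gene ends, 19.6%, was 19.98% with an overlap of 50%, 20.4% for summits within 250 bp, 21.2% and 24.6% at −log10 q of at least 3 and 5, 20.1% with lists of equal length, 20.9% for peaks of 300 bp to 10 kb, 25.2% within 2.5 kb and 16.9% for summits, and without a replicate 15.8% to 16.4%. These moves exceed 0.0998 points, the SD between the libraries of the share among shared peaks. Those peaks were kept because they overlap each other, so this SD does not measure the spread between whole lists. In whole lists the shares were 15.8% in control 1 and 16.4% in control 2. Mean median peak width, 777.25 bp, was 854.5 and 1006.5 bp at −log10 q of 3 and 5, 844.5 bp for peaks of 300 bp to 10 kb, and 617 to 628 bp without a replicate. Median CpG of promoters with a site, 0.779, went to 0.782, 0.780, 0.785 and 0.781 for summits within 250 bp, −log10 q of 3 and 5 and peaks of 300 bp to 10 kb, and to between 0.775 and 0.779 without a replicate, alternatives added after seeing the data. Of the 25 genes with the largest sums, 22 to 25 stayed under the 8 peak alternatives, 24 with the gene body alone, 19 with the nearest end, 14 by number of sites and 0 by share covered. Counts of list genes with a site were within 1.5 times in 192 of 200 alternatives. The 8 others were in the lists immune, epicardial, liver, skeletal muscle, and brain and other lineage regulators. Summed lengths of 39 named genes moved by more than the SD between the libraries, also taken over shared peaks, in 222 of 390 alternatives. Relative to the main value they lay between 0.366 and 1 times for summits within 250 bp, and between 0.116 times, for Nppa, and 1 times for peaks of 300 bp to 10 kb. Without control 1 they lay between 0.865 and 1.65 times, the latter for Nppb, and without control 2 between 0.993 and 1.36 times. No paired analysis was possible because no comparison between groups was made.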

Other observations

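Long noncoding RNA genes lay under some of the widest sites. Of 12408 autosomal lncRNA genes of RefSeq, 4980 (40.1%) had a shared site in the gene body. Neat1, which encodes the RNA scaffold of nuclear paraspeckles, spans 20773 bp and was covered at 100% in control 1 and 98.6% in control 2. The site of 32397 bp named above for its nearest protein-coding gene end, Frmd8, is the one that holds Neat1. Malat1, a nuclear speckle RNA of 6983 bp, was covered at 100% in both lists by a site of 14575 bp. Mhrt, a cardiac RNA from the Myh7 locus, was covered at 53.9% and 44.6%. The imprinted genes H19 and Meg3, and Hotair and Fendrr, had no shared site. These genes were chosen after the values were seen, apart from the count over all lncRNA genes.

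Of 919 autosomal microRNA hairpins of RefSeq, 196 (21.3%) lay in a shared site. Mir22, a microRNA abundant in heart muscle, lay in the 12391 bp site beside Tlcd2, at percentiles 99.98 and 99.996. Mir195a and Mir497 lay together in a site of 15731 bp (percentiles 99.8 and 99.7), and Mirlet7b and Mirlet7c-2 in one of 14954 bp (92.5 and 90.6). Mir126a, a microRNA of endothelial cells, lay in a 13810 bp site inside Egfl7, and Mir208a, of the cardiac myosin genes, in an 11212 bp site inside Myh6. Mir208b inside Myh7 and Mir499 inside Myh7b did not lie in a site, nor did Mir133b and Mir206 of skeletal muscle. The mature sequences of those in wide sites are printed with the seed, bases 2 to 8, in capitals. They show that the pairs within a site carry 1 seed each.
mmu-miR-22-3p: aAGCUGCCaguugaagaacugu
mmu-miR-195a-5p: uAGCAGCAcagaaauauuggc
mmu-miR-497a-5p: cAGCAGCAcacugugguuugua
mmu-let-7b-5p: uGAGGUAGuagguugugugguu
mmu-let-7c-5p: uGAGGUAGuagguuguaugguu
mmu-miR-126a-3p: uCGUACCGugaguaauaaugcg
mmu-miR-208a-3p: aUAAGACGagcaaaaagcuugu
The hairpins named were chosen after their values were seen.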
